A study of Mus musculus with 18 samples.

Results

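Late suckling was compared with early suckling in the ileum, the last part of the mouse small intestine, by setting the 6 arrays of postnatal days 9 and 11 against the 6 arrays of days 4 and 7. These 12 arrays, of 18 in the series, were chosen by the ages in their titles, and all genes were examined with 1 probe set per gene. The mice were of the inbred strain C57BL/6, with 3 individual mice at each age. The labels name no treatment, no sex and no litter. Total RNA came from pieces holding all layers of the intestinal wall, so that epithelium, muscle, nerves, vessels and immune cells contributed. The 6 arrays of days 24 and 32, taken after weaning, entered the fit only to estimate the spread between mice. They also counted in the filter on dim probe sets and in the choice of probe set. All 4 younger ages lie before weaning by general knowledge of laboratory mice. A difference below is the log2 level on the late side minus that on the early side, each side being the average of its ages. A gene was called when its limma p-value, adjusted by the Benjamini-Hochberg method over all 8630 genes tested, was below 0.05, and the verbs rose and fell are used of called genes only.

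During suckling the mouse small intestine lives on milk, a food rich in fat and lactose, and its enterocytes carry a large endocytic and lysosomal apparatus that takes up milk proteins whole. Crypts of Lieberkühn, the pits that house the intestinal stem cells, form after birth. Paneth cells, which secrete antimicrobial peptides at the crypt base, appear as the crypts mature. Fatty acids and retinol that enter enterocytes are carried in the cytoplasm by small binding proteins of the Fabp and Rbp families. The series follows early postnatal development, and setting these ages against each other asks what differs within the suckling period itself.

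Both sides carried marks of suckling epithelium, while the ileal markers did not all behave alike. Lct, the lactase that digests milk sugar, had a level of 11.04 to 11.62 (median 11.18) on the early arrays and 11.06 to 11.37 (median 11.24) on the late arrays, against a mean of 3.41 at day 32. The mean level of 10 epithelial markers was 10.26 to 10.33 early and 10.26 to 10.37 late. Of the ileal markers, Slc51a, a subunit of the basolateral bile acid exporter, averaged 9.83 early and 9.90 late. Fabp6, an ileal bile acid carrier, averaged 7.93 early and 6.12 late, and Fgf15, an ileal hormone, 7.60 and 8.17. The 2 tested markers of the proximal small intestine had a median difference of -0.20, and 0 were called. Slc10a2, the ileal bile acid importer, was within 2.00 to 2.28 on all 12 arrays, a level that cannot be separated from background, and reached 6.79 at day 24. Correlations between suckling arrays of the same age ran from 0.983 to 0.996 across probe sets, and those between different ages from 0.982 to 0.996. The signal of the hybridization controls, bacterial transcripts added before hybridization, fell into a higher and a lower group split at log2 9.30. The higher group held 3 early arrays (day 4 replicates 1 and 2, day 7 replicate 3) and 1 late array (day 11 replicate 1). Low Xist, the pattern of male tissue, was found on 2 early arrays and 1 late array. Day 11 replicate 1 also had the highest 18S ribosomal RNA control, at 8.19 against 5.22 to 6.22 on the other late arrays.

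The genes called between early and late suckling were a small share of those tested. Such a count depends on the precision of 6 arrays a side and does not measure how much changed. Of 8630 genes tested, 66 rose (0.765%) and 64 fell (0.742%), together 1.51%. These are the shares to set beside each count of called list members below. Antimicrobial products of Paneth cells made up the most certain rises, and cytoplasmic lipid-binding proteins the largest falls. Most called differences were modest: 6 of the rises and 7 of the falls reached 2-fold, whereas 39 rises and 42 falls were 1.5-fold or less. The median difference was 0.53 among the rises and -0.51 among the falls, on the log2 scale, beside -0.01 over all genes tested. The 6 late and 6 early arrays did not overlap for 175 genes (2.03%), 56 of them higher (0.649%) and 119 lower late (1.38%), and 68 of these (0.788%) were also called, 30 upward and 38 downward. An unadjusted p below 0.05 was reached by 1238 genes (14.3%). The median standard error of a difference was 0.10. Leaving out 1 array moved the number of rises by over 1.5 times for day 4 replicate 2 (43), day 7 replicates 1, 2 and 3 (39, 40 and 42), day 9 replicates 2 and 3 (35 each) and day 11 replicate 2 (43). It did so for the falls with day 4 replicates 2 and 3 (41 and 37), day 7 replicates 1 and 2 (35 and 40) and day 9 replicates 2 and 3 (37 and 36), and leaving out day 4 altogether left 7 rises and 6 falls.

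**Figure D1:**
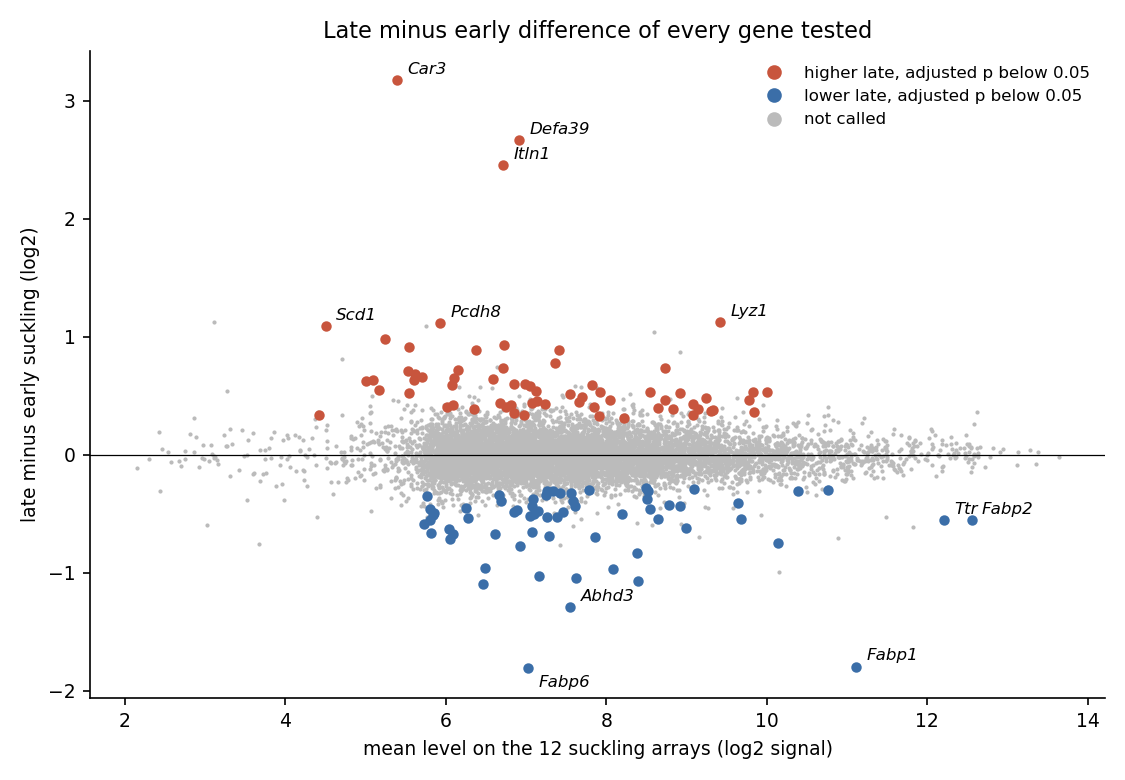
Each point is 1 of 8630 genes, with its mean log2 level on the 12 suckling arrays on the horizontal axis and its late minus early difference (log2) on the vertical axis; red and blue points were called higher and lower, and grey points were not called. Car3, Defa39 and Itln1 lie far above the rest, and Fabp6 and Fabp1 far below, while most called genes lie within 1 log2 unit of 0.

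Of all lists with at least 3 tested genes, that of Paneth cell products had the highest median difference. Defa39, an alpha-defensin, a short peptide that breaks bacterial membranes, ran from 5.04 to 5.81 (median 5.64) on the early arrays and from 7.83 to 8.91 (median 8.06) on the late arrays. The groups lay more than 2 log2 units apart, and the difference was 2.67 ± 0.13 (SE, 6 arrays a side), 6.34-fold, with an adjusted p of 5.50e-10 by limma. Itln1, an intelectin, a lectin of Paneth and goblet cells that binds microbial sugars, ran from 5.23 to 6.05 (median 5.35) early and 7.34 to 8.74 (median 7.85) late. Its rise of 2.45 ± 0.11, or 5.47-fold, also came without overlap (adjusted p 1.64e-10, limma). Lyz1, the lysozyme of Paneth cell granules, which cleaves bacterial cell walls, went from 8.63 to 9.19 (median 8.79) to 9.57 to 10.36 (median 10.03). Every late array was again above every early one, with a difference of 1.12 ± 0.08 or 2.18-fold (adjusted p 2.70e-07, limma), and another probe set of Lyz1 gave 1.30. All of this came after day 7: the means of Defa39 were 5.54, 5.62, 7.88 and 8.60 on days 4, 7, 9 and 11, and those of Itln1 were 5.73, 5.25, 7.44 and 8.44. Itln1 was also called within the late side, by 1.00 from day 9 to day 11 (adjusted p 0.0196, limma). None of the 3 had reached its level after weaning, which at day 24 was 12.90 for Defa39, 12.07 for Itln1 and 13.09 for Lyz1.

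The other tested Paneth products were not called. Of 16 genes in the Paneth cell list, 6 were tested. Of these, 3 rose and 0 fell, beside 0.765% and 0.742% of all genes tested. The median difference was 0.72 beside -0.01 over all genes. Mmp7, the protease that activates alpha-defensins, differed by 0.31 (adjusted p 0.26), Ang4, an angiogenin with antimicrobial activity, by 0.20 (0.71) and Pla2g2a, a secreted phospholipase, by 0.08 (0.82), in limma. Pla2g2a stood at 3.03 early and 3.12 late, within background, and passed the filter on dim probe sets through the arrays after weaning. The mean level of the 6 genes ran from 6.16 to 6.50 early and from 7.08 to 7.85 late. In a piece of whole tissue, more cells of a type and more RNA per cell cannot be told apart, here and for every gene below. The probe set of Defa39 can read other alpha-defensins of near-identical sequence, so its value belongs to that family rather than with certainty to this member. The calls of Defa39, Itln1 and Lyz1 held in all 40 alternative settings examined, as did that of Fabp6, and only these 4 of 44 called genes named by rule did so.

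**Figure D2:**
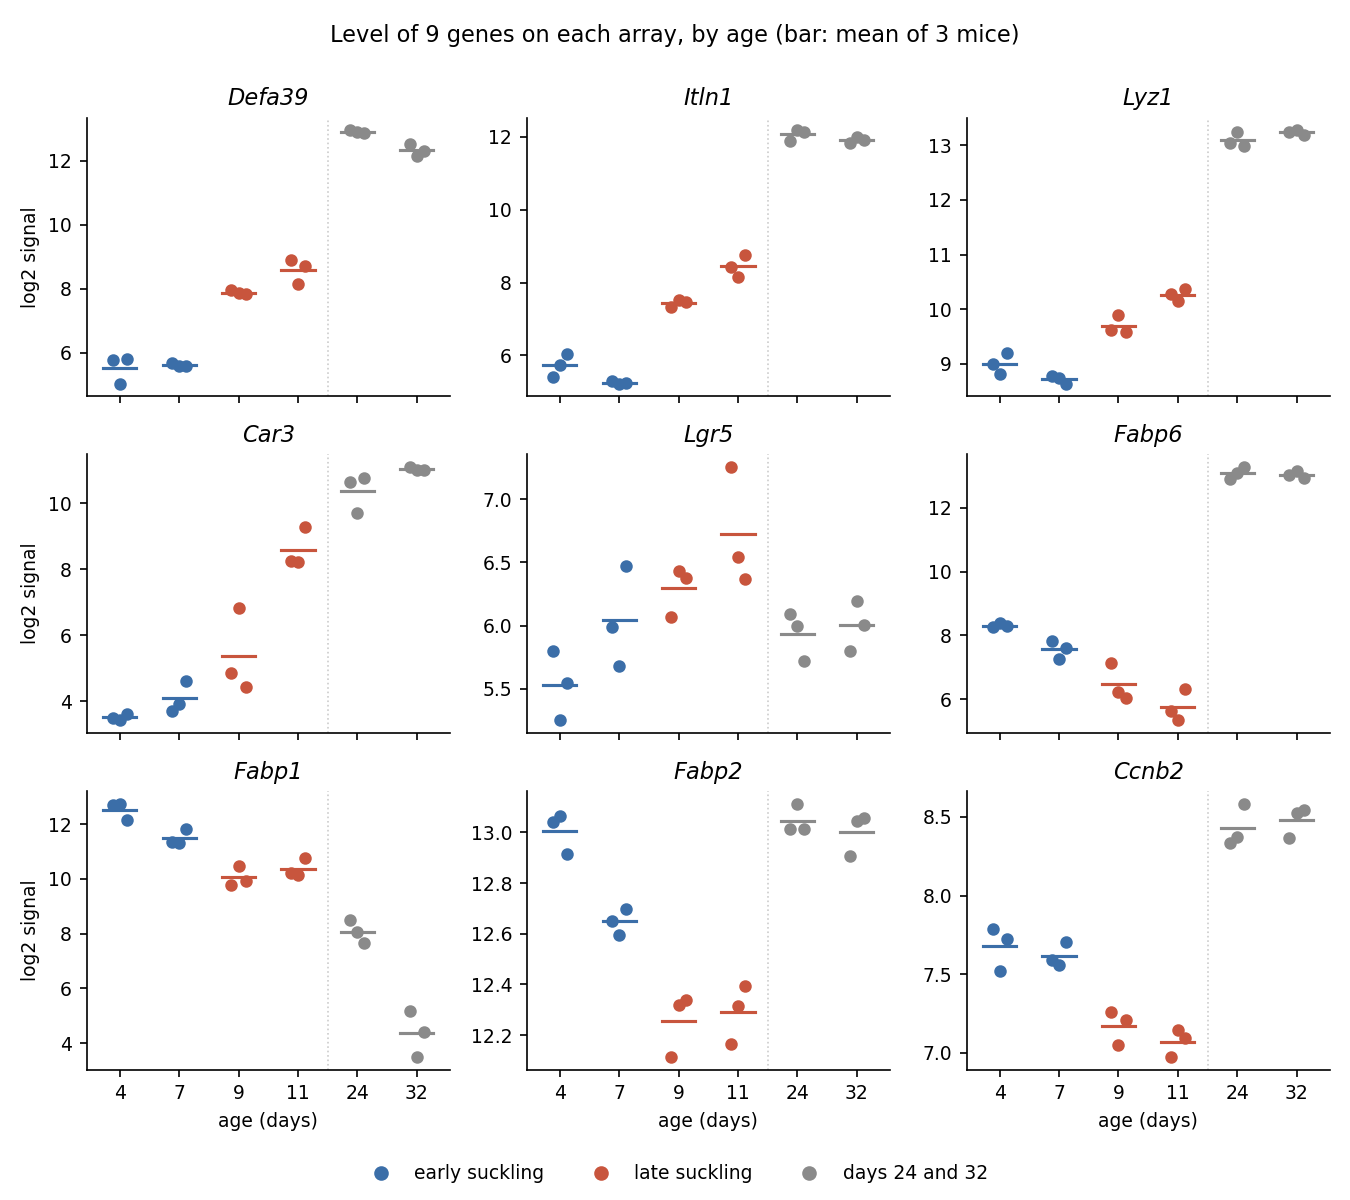
Log2 level of 9 genes on each of the 18 arrays by age in days, with points for mice and a bar for the mean of 3 mice; blue is early suckling, red late suckling and grey days 24 and 32. Defa39, Itln1 and Lyz1 step up between day 7 and day 9, Fabp6 declines through day 11 (mean 5.77) and stands at 13.09 on day 24, and Ccnb2 steps down after day 7.

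Among markers of crypt stem cells, Lgr5 and Olfm4 were called higher late, and the other 7 tested were not called. Lgr5, the receptor that marks cycling crypt base stem cells and binds R-spondins, ran from 5.25 to 6.47 (median 5.74) early and from 6.07 to 7.25 (median 6.41) late. The sides overlapped, and the difference was 0.72 ± 0.16 or 1.65-fold (adjusted p 0.024, limma). Olfm4, a secreted glycoprotein of the same cells, ran from 9.46 to 9.90 (median 9.80) early and 10.13 to 10.40 (median 10.26) late without overlap, a difference of 0.53 ± 0.12 (adjusted p 0.0291, limma). Among 9 tested markers of crypt stem cells or targets of Wnt, Lgr5 and Olfm4 rose and 0 fell, beside 0.765% and 0.742% of all genes. All 9 differences were above 0, from 0.05 for Smoc2 to 0.72 for Lgr5, as were 4082 of all 8630. Their median was 0.18 (0.11 in the lower hybridization-control group) beside -0.01 over all genes. Axin2, a general target of Wnt signalling, differed by 0.18 (adjusted p 0.51) and was not called. The call of Lgr5 was lost on leaving out any of 7 arrays (day 4 replicates 2 and 3, day 7 replicates 1 and 2, day 9 replicates 2 and 3, day 11 replicate 1), with adjusted p up to 0.0788. That of Olfm4 was lost on leaving out any of 8 (day 4 replicate 2, day 7 replicates 2 and 3, all of day 9, day 11 replicates 2 and 3; up to 0.092), and with the hybridization-control group as a block it had an adjusted p of 0.0719, whereas that of Lgr5 was 0.00387.

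The other leading rises belonged to several cell functions. Pcdh8, a protocadherin of cell adhesion, ran from 4.36 to 5.89 (median 5.51) early and from 6.17 to 6.80 (median 6.51) late, a difference of 1.11 ± 0.16 (adjusted p 0.00133, limma). The sides did not overlap, and after weaning Pcdh8 was back at 4.68 on day 24. Pnliprp2, a lipase that splits milk fat and galactolipids, ran from 4.50 to 4.89 (median 4.81) early and from 5.07 to 6.53 (median 5.65) late, 1.97-fold (adjusted p 0.0017). Slc5a8, a sodium-coupled transporter of short-chain fatty acids and lactate, went from 5.22 to 6.79 (median 6.37) to 6.98 to 7.39 (median 7.19), 1.90-fold (adjusted p 0.00273). For both, the late arrays lay above all early ones, and the levels on day 24 were higher again, at 9.57 and 9.10. Calb2, the calcium-binding protein calretinin, rose by 0.66 ± 0.08 (adjusted p 0.000207), Thap2, a zinc-finger DNA-binding protein, by 0.69 ± 0.08 (0.000171) and Rhbdl2, an intramembrane protease, by 0.63 ± 0.10 (0.00256). Pcdh8 and Calb2 reached log2 6, the level of the filter on dim probe sets, only on late arrays. They were thus tested through the side where they are high, which limits what their calls add. Pnliprp2, Thap2 and Rhbdl2 passed the filter through arrays after weaning.

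C1s1, a serine protease of the complement cascade, rose by 0.65 ± 0.13 (adjusted p 0.0125, limma) and Mylip, a ubiquitin ligase that degrades the low-density lipoprotein receptor, by 0.64 ± 0.12 (0.0121). Neither overlapped between the sides, but in the 8 arrays of the lower hybridization-control group their adjusted p-values were 0.0723 and 0.105. Bzw2 rose by 0.78 on the probe set used, but its other probe set past the filter gave -0.14, and its call was lost when the probe sets were averaged. Across the named called genes, 22 of 23 further probe sets past the filter had the same direction as the probe set used, Bzw2 being the exception. Scd1, the desaturase that makes oleate, ran from 3.48 to 4.45 (median 3.89) early and from 4.12 to 6.65 (median 4.97) late, with overlap (1.09 ± 0.24, adjusted p 0.024). Scd1 passed the filter through arrays after weaning. It was the single called member of 10 fatty acid synthesis genes tested, whose median was -0.03, and its adjusted p was 0.0649 with the hybridization-control group as a block and up to 0.0802 without any of day 4 replicates 2 and 3, day 7 replicates 2 and 3 and day 9 replicate 2. Nqo1, a detoxifying quinone reductase, was likewise the single called member of 12 xenobiotic metabolism genes (0.53 ± 0.12, adjusted p 0.0401, and 0.0815 with the block). Its call was lost on leaving out any of 9 arrays (day 4 replicates 2 and 3, all of day 7, day 9 replicates 2 and 3, day 11 replicates 2 and 3; up to 0.128).

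Fabp6 and Fabp1 had the largest falls of all tested genes, and 2 more cytoplasmic carriers of lipids or retinol, Fabp2 and Rbp2, fell as well. The stretches of 250 bases before their annotated transcription starts are given because these genes moved together, from RefSeq on the mouse build GRCm38.p6, written 5′ to 3′ on the strand of the gene. Fabp6 lies on the minus strand at chr11:43601563-43601812, Fabp1 on the plus strand at chr6:71199629-71199878, Fabp2 on the plus strand at chr3:122894822-122895071 and Rbp2 on the plus strand at chr9:98490287-98490536. Capitals mark AGGTCA on either strand (as TGACCT on the other strand), the core sequence that nuclear receptors for fatty acids, bile acids and retinoids bind in their response elements.
Fabp6: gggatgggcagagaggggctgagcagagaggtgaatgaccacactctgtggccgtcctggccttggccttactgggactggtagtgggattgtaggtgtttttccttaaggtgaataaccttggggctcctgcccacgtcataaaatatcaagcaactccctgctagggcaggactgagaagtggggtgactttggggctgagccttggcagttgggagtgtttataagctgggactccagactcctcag
Fabp1: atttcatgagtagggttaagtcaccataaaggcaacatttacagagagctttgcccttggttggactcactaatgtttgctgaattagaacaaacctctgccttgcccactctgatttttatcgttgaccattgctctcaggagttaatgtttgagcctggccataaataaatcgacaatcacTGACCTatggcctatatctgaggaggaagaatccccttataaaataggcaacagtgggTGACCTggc
Fabp2: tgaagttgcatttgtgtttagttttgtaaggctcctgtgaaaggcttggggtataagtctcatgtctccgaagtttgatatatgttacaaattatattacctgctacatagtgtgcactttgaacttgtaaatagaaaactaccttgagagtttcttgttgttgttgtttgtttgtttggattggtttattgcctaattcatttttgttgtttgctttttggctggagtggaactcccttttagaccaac
Rbp2: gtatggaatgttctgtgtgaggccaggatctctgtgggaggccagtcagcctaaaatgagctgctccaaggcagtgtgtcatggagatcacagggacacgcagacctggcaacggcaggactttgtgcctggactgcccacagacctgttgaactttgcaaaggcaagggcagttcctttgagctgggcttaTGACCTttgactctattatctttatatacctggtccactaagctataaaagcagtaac
AGGTCA was present 2 times before Fabp1 (starting 67 and 9 bases before the start), 1 time before Rbp2 (58 bases) and 0 times in this window of Fabp6 and Fabp2. Of all 32851 promoters in the table, cut to the same length, 14% held it at least 1 time. A match describes letters and is not evidence of binding.

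Fabp6, the bile acid carrier of ileal enterocytes, ran from 7.25 to 8.38 (median 8.04) on the early arrays and from 5.34 to 7.15 (median 6.14) on the late arrays. All late arrays were below all early ones, and the difference was -1.81 ± 0.18, 3.51-fold lower (adjusted p 1.46e-05, limma). It declined at each step, with means of 8.30, 7.56, 6.48 and 5.77, and was at 13.09 on day 24. Fabp1, the liver-type carrier of long-chain fatty acids, ran from 11.32 to 12.75 (median 11.98) early and from 9.77 to 10.78 (median 10.18) late, again without overlap. It was 3.47-fold lower (-1.80 ± 0.23, adjusted p 0.000382), its other probe set gave -2.14, and unlike Fabp6 it was lower still after weaning (8.08 on day 24). Fabp2, the intestinal carrier of long-chain fatty acids, moved within a narrow range, from 12.60 to 13.06 (median 12.81) to 12.11 to 12.39 (median 12.32), a difference of -0.55 ± 0.07 (adjusted p 0.000296). Rbp2, which carries retinol in enterocytes, ran from 10.16 to 10.88 (median 10.47) early and from 9.42 to 10.06 (median 9.76) late, and fell by 0.75 on the log2 scale (adjusted p 0.00256). The groups were apart for these genes too. Leaving out day 4 ended the calls of Fabp1, Fabp2 and Rbp2, and that of Fabp6 held.

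Genes that absorb dietary fat and pack it into chylomicrons were called only downward, and most were not called. Among 18 tested genes for absorbing fat and assembling lipoproteins, Fabp1 and Fabp2 fell and 0 rose, beside 0.742% and 0.765% of all genes. The median was -0.16 beside -0.01 over all genes, or -0.07 within the lower hybridization-control group. Of the 18, 15 were below 0, as were 4548 of all 8630. An unadjusted p below 0.05 was reached by 6 of them, all lower, beside 14.3% of all genes in either direction. Apoc2, an activator of lipoprotein lipase, differed by -0.53 (adjusted p 0.056) and was not called. Apoa4, an apolipoprotein of chylomicrons, stayed within 13.23 to 13.48 on all 12 arrays (-0.08 ± 0.17, adjusted p 0.886), near the top of the table's range (13.71), where array signal is compressed and a difference can be understated. Apob, the backbone of the particle, differed by -0.03, Mttp, which loads lipid onto it, by -0.29 and Dgat2, a triglyceride synthase, by -0.04, none of them called. Of 13 fatty acid oxidation and ketogenesis genes, 0 were called, beside 1.51% of all genes tested, and the median was -0.05. Of 8 genes of ileal bile acid handling, Fabp6 alone was called, and the median was -0.01, turning to 0.00 under cyclic loess normalization. Fgf15, the ileal hormone that signals bile acid load to the liver, differed by 0.57 ± 0.29 (adjusted p 0.392) and overlapped widely, from 7.06 to 8.18 early and 7.41 to 8.63 late.

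Several enzymes and surface proteins fell with the carriers. Abhd3, an enzyme that cleaves medium-chain phospholipids, ran from 7.40 to 9.19 (median 8.09) early and from 6.45 to 7.16 (median 7.12) late, 2.45-fold lower (adjusted p 0.000408, limma). Its fall was also called inside the early side, at -1.30 from day 4 to day 7 (adjusted p 0.0493). Asah2, the neutral ceramidase that digests milk sphingolipids on the brush border, went from 8.41 to 9.77 (median 8.89) to 7.49 to 8.31 (median 7.91), 2.10-fold lower (adjusted p 0.00256). Bst1, an enzyme that makes cyclic ADP-ribose on the cell surface, was 2.06-fold lower (adjusted p 0.00273) and Phgdh, the entry enzyme of serine synthesis, 1.78-fold lower (0.00773). The late arrays of all 4 genes lay below the early ones. Sectm1b, a secreted and transmembrane protein, fell by 1.03 ± 0.12 (adjusted p 0.000171), and its sides, 6.92 to 8.56 early and 6.24 to 6.94 late, overlapped at their edges. Arsg, a lysosomal sulfatase, was 1.65-fold lower (0.000679), Pid1, which binds a lipoprotein receptor, 1.61-fold (0.0015) and Gpr151, an orphan receptor, 1.59-fold (0.000577). Mptx1, a pentraxin of the mucosa, was 1.72-fold lower (0.0137). Arsg reached log2 6, the level of the filter, only on early arrays, so it was tested through the side where it is high.

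Of 23 tested genes of DNA replication and mitosis, 3 were called lower late, by small amounts. Ccnb2, a cyclin that drives entry into mitosis, Cenpa, the histone of centromeres, and Cdk1, the kinase that cyclins B activate, were the ones called. Their 250 bases before the start are given because CCAAT boxes, bound by the factor NF-Y, are a known feature of promoters active late in the cell cycle. Ccnb2 lies on the minus strand at chr9:70421555-70421804, Cenpa on the plus strand at chr5:30666636-30666885 and Cdk1 on the minus strand at chr10:69352913-69353162, on GRCm38.p6 from RefSeq. Capitals mark CCAAT on either strand (as ATTGG on the other strand).
Ccnb2: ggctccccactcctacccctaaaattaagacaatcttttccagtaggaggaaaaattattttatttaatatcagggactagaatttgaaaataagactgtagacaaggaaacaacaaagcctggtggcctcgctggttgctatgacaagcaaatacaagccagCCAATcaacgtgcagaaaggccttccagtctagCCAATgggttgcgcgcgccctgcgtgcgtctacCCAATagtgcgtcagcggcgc
Cenpa: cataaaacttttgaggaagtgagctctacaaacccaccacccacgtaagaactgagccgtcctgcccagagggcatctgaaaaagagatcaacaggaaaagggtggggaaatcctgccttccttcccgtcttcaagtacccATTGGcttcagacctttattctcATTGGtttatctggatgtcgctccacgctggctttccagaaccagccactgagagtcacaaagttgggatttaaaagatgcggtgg
Cdk1: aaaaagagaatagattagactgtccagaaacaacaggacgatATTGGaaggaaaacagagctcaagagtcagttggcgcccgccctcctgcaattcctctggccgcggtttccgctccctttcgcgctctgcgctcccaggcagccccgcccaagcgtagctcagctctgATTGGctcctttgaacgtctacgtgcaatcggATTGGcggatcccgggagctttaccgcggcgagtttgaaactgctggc
CCAAT was found 3 times before Ccnb2 (starting 87, 54 and 21 bases before the start), 2 times before Cenpa (109 and 86) and 3 times before Cdk1 (208, 80 and 48). It was present at least 1 time in 21 of the 23 promoters (91.3%) of the 22 genes of DNA replication and mitosis with an entry, and in 11120 of all 32851 promoters (33.8%). At least 2 matches were found in 60.9% and 10.1% of them. The match is a description of the letters, and binding was not measured.

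Ccnb2 ran from 7.52 to 7.79 (median 7.65) on the early arrays and from 6.97 to 7.26 (median 7.12) on the late arrays, without overlap, a difference of -0.53 ± 0.08 or 1.44-fold (adjusted p 0.00119, limma). Cenpa ran from 7.02 to 7.21 (median 7.14) early and 6.42 to 6.88 (median 6.66) late, also apart, a difference of -0.47 ± 0.07 (adjusted p 0.00224). Cdk1 went from 7.41 to 7.67 (median 7.46) to 7.09 to 7.29 (median 7.18), -0.31 ± 0.07 (adjusted p 0.0459). All 3 were higher again at day 24 than on any suckling day, at 8.43, 7.64 and 7.88. In the list, 3 fell and 0 rose, beside 0.742% and 0.765% of all genes tested. Of its differences, 22 were below 0, as were 4548 of all 8630. The median was -0.27 beside -0.01 over all genes. The exception was Pcna, the sliding clamp of DNA replication, at 0.04. Mki67, the usual marker of cycling cells, differed by -0.29 ± 0.11 (adjusted p 0.215) and overlapped, from 9.10 to 9.57 early and 8.76 to 9.16 late. The median of the list lay between -0.28 and -0.26 under the 3 other normalizations. Outside the list and chosen after their values were seen, Ube2c, a ubiquitin-conjugating enzyme of mitotic exit, and Cdca3, which promotes mitotic entry, fell by 0.51 (adjusted p 0.0158) and 0.48 (0.00919). Espl1, the protease separase that releases sister chromatids, fell by 0.46 (0.00773), and Chaf1b, a histone chaperone of replication, by 0.51 (0.0121). Among the suckling arrays, Espl1 and Chaf1b reached log2 6, the level of the filter, only on early ones. The arrays after weaning were too few at that level to pass them, so both were tested through the side where they are high. The call of Cdk1 was lost on leaving out any of the 12 suckling arrays or day 32 replicates 1 and 2 (adjusted p up to 0.148) as well as under median centring and with the hybridization-control group as a block (0.0829).

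Among sterol genes, 2 of synthesis fell and both partners of the exporter rose. Fdft1, the squalene synthase, ran from 8.60 to 8.87 (median 8.78) early and from 8.01 to 8.39 (median 8.37) late, without overlap (-0.46 ± 0.09, adjusted p 0.012, limma). Hmgcs1, which makes the precursor of mevalonate, differed by -0.30 ± 0.07 (adjusted p 0.0459). Its other probe sets past the filter gave smaller differences of -0.28, -0.18 and -0.07. Of 16 tested genes of cholesterol synthesis, 2 fell and 0 rose, beside 0.742% and 0.765% of all genes tested. Among their differences 14 were below 0, as were 4548 of all 8630. The median was -0.31 beside -0.01 over all genes, or -0.18 within the lower hybridization-control group. The mean level of the list ran from 8.0 to 8.19 early and from 7.43 to 8.01 late. Day 11 replicate 1 stood lowest for Fdft1 (8.01), and without it the difference of Fdft1 was -0.41 (adjusted p 0.0286). Idi1, Sqle, Lss and Msmo1, further enzymes of the route, lay between -0.37 and -0.33 and were not called. Chosen after their values were seen, Abcg5 and Abcg8, the partners of the transporter that returns sterols to the gut lumen, rose by 0.39 ± 0.08 (adjusted p 0.0108) and 0.44 ± 0.08 (0.0109). Abcg5 ran from 8.28 to 8.59 early and 8.65 to 8.96 late without overlap, and Abcg8 from 7.15 to 7.82 and 7.70 to 8.0 with it, and their adjusted p-values within the lower group were 0.133 and 0.161. The call of Hmgcs1 was lost on leaving out any suckling array other than day 11 replicate 3, or day 32 replicate 1 or 2 (adjusted p up to 0.131). It was also lost when the probe sets were averaged, under median centring and cyclic loess normalization, and with the hybridization-control group as a block (0.0662).

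Imprinted genes, which are expressed from the copy of only a single parent and are active in growing tissues, were called only downward among the members of their list. Mest, a hydrolase expressed from the paternal copy, ran from 8.07 to 8.36 (median 8.17) early and from 6.81 to 7.80 (median 7.62) late, without overlap (-0.70 ± 0.13, adjusted p 0.00919, limma). Grb10, an adaptor that restrains insulin and growth factor receptors, lay within 8.61 to 8.68 early and 8.30 to 8.47 late (-0.29 ± 0.06, adjusted p 0.0196). Peg3, a zinc-finger protein, fell by 0.38 ± 0.09 (adjusted p 0.0383), with overlap. Of 11 tested genes of the imprinted growth network, 3 fell and 0 rose, beside 0.742% and 0.765% of all genes tested. Among their differences 9 were below 0, as were 4548 of all 8630, and the median was -0.21. Igf2, the fetal insulin-like growth factor, did not overlap between the sides (9.97 to 10.36 early, 9.40 to 9.78 late) but was not called (-0.52 ± 0.19, adjusted p 0.204). Dlk1, a Notch-like surface protein, differed by -0.77 (0.17) and Igf2r, the receptor that clears Igf2, by 0.23 (0.37). Chosen after their values were seen, Igf2os, the antisense transcript at Igf2, and Nnat, a proteolipid encoded at an imprinted locus, fell by 0.67 (adjusted p 0.00273) and 0.48 (0.00273), while Dio3os, an antisense transcript of a further imprinted locus, rose by 0.59 ± 0.13 (0.0211). The array does not settle whether Igf2os signal is separate from that of Igf2. Igf2os passed the filter on dim probe sets only through early arrays and Dio3os only through late arrays. Each was thus tested through the side where it is high, which limits what its call adds. The call of Grb10 was lost on leaving out any of 6 arrays (day 4 replicate 3, day 7 replicates 2 and 3, day 9 replicates 2 and 3, day 11 replicate 3; adjusted p up to 0.0619). That of Peg3 was lost without any suckling array other than day 4 replicate 1 and day 11 replicate 1 (up to 0.119). Peg3 was also not called under cyclic loess normalization or with the hybridization-control group as a block (0.0776).

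Genes that define the milk-fed enterocyte and those that define the adult were not called in either direction. Of 18 tested suckling enterocyte genes, 0 were called by limma and 1 had an unadjusted p below 0.05. Over all genes tested these shares were 1.51% and 14.3%, so 0 calls do not set lists of this size apart. Of these, Plb1 (3.67 early, 3.71 late) and Fam151a (3.73, 3.76) were at background on the suckling arrays and passed the filter through day 24, so 16 were measured here. Their differences ran from -0.16 for Glb1, a lysosomal galactosidase, to 0.20 for Folr1, a folate receptor, with a median of 0.06. Prdm1, the repressor that holds back the adult programme, ran from 8.49 to 8.80 (median 8.76) early and from 8.66 to 9.23 (median 8.77) late (0.15 ± 0.08, adjusted p 0.431). Of 13 adult brush border genes, 0 were called and 3 had an unadjusted p below 0.05, with a median of -0.07. Treh, Arg2 and Slc2a5 were below 5 on both sides and passed the filter after weaning. Treh, the trehalase of the adult, remained within 2.53 to 3.33 on the 12 arrays, near background, against 8.47 at day 24.

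Among other lists, 0 of 10 goblet cell genes were called (median 0.03; 2 with an unadjusted p below 0.05), 0 of 19 matrix and fibroblast genes (0.10; 4) and 0 of 10 smooth muscle genes (-0.01; 0). The smooth muscle median turned to 0.00 under cyclic loess normalization. Over all genes tested 1.51% were called and 14.3% had an unadjusted p below 0.05, so 0 calls do not set lists of these sizes apart. Genes that respond to microbes were all above 0 and none of the 6 was called (median 0.45; 3 unadjusted), but Reg3a, Saa1 and Saa2 among them averaged below 4 on both sides. Reg3g, an antibacterial lectin, ran from 4.53 to 6.34 (median 4.83) early and from 4.83 to 9.56 (median 5.80) late, a wide overlap in which day 9 replicate 1 stood highest (1.09 ± 0.42, adjusted p 0.238). Without that array the difference was 0.56. Pigr, which carries IgA across the epithelium, averaged 9.24, 8.46, 9.62 and 8.81 on days 4, 7, 9 and 11, up and down within both sides (0.36 ± 0.10, adjusted p 0.102). All 11 circadian clock genes tested were above 0 with 0 called (median 0.19; 4 unadjusted), the highest being Per2 at 0.40 (0.22), and the labels give no time of day. Lymphocyte, macrophage, antigen presentation, interferon, enteroendocrine and neuronal lists had 0 calls, and most tested lymphocyte markers averaged below 5 on both sides. Of 9 endothelial genes, Lyve1, the hyaluronan receptor of lymph vessels, fell by 0.53 ± 0.11 (adjusted p 0.0196), with overlap, and its call was lost on leaving out any of 5 arrays (day 4 replicate 3, day 7 replicates 1 and 3, day 9 replicate 1, day 11 replicate 1; up to 0.0664).

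**Figure D3:**
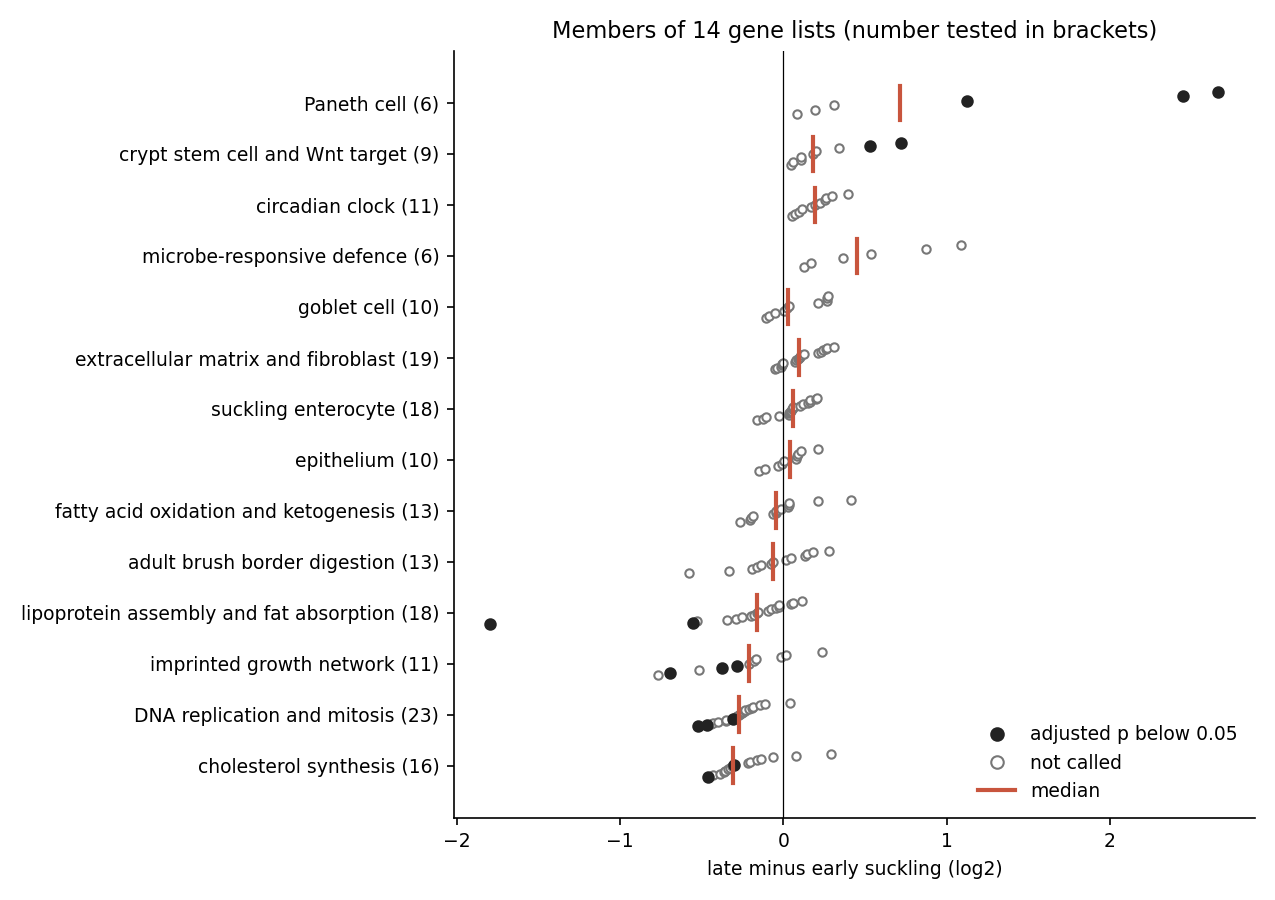
Late minus early difference (log2) of each tested member of 14 gene lists, with the number tested in brackets; filled points had an adjusted p below 0.05, open points did not, and the red bar is the list's median. Among these 14 of the 40 lists, filled points above 0 are in the Paneth cell and crypt stem cell lists and filled points below 0 in the lipoprotein, imprinted, mitosis and cholesterol lists; lists not drawn also hold calls, such as Scd1, Nqo1 and Car3 upward.

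Some called genes mark tissues that border the ileum, and their values are given with those of the marker lists. Car3, a carbonic anhydrase abundant in fat cells, had the largest rise of all tested genes, from 3.42 to 4.62 (median 3.67) early to 4.44 to 9.26 (median 7.51) late, 9.02-fold (3.17 ± 0.31, adjusted p 1.63e-05, limma). Its other probe set past the filter gave a smaller difference, 1.355. The sides overlapped, and day 9 alone spread widely (5.38 ± 1.27, SD, n = 3), while day 11 stood at 8.57. Car3 was also called within the late side, at 3.20 from day 9 to day 11 (adjusted p 0.0105), and leaving out day 11 ended its call. Of 6 tested adipocyte markers, Car3 alone was called. Adipoq, the hormone that defines fat cells, ran from 2.44 to 2.71 early and 2.28 to 6.02 late (1.12 ± 0.30, adjusted p 0.0714), and Lep, at 2.56 and 2.67, was at background. Fabp4, the fatty acid carrier of fat cells and capillaries, differed by 0.16 (0.64). The mean level of the 6 markers ran from 5.56 to 5.76 early and from 5.6 to 7.34 late. Lpl, the lipase that fat cells and muscle send to capillaries, chosen after its values were seen, rose by 0.89 ± 0.21 (adjusted p 0.0368, and 0.0807 with the hybridization-control group as a block). The part of adipose tissue in these rises was not tested.

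Of the 2 hepatocyte markers tested both fell: Ttr, which carries thyroid hormone and retinol-binding protein in plasma, from 12.28 to 12.69 (median 12.46) to 11.71 to 12 (median 11.96), and Fga, the fibrinogen alpha chain, from 5.75 to 6.47 (median 6.11) to 5.29 to 5.82 (median 5.52). The differences were -0.56 ± 0.12 (adjusted p 0.0216) and -0.55 ± 0.12 (0.0196), that of Ttr without overlap. Fga reached log2 6, the level of the filter, only on early arrays, so it was tested through the side where it is high. Albumin (Alb), the defining transcript of liver, was at 3.22 and 3.11, within background, as was Ahsg at 3.00 and 2.95. Cela1, an elastase of pancreas and gut, fell by 0.96 ± 0.20 (adjusted p 0.0212) with overlap, while the pancreatic enzymes Cela2a (2.68 and 2.66) and Cpa1 (3.18 and 3.08) were at background. The mean level of the 2 tested pancreatic markers ran from 6.50 to 7.75 early and 6.31 to 6.83 late, and that of the 2 hepatocyte markers from 9.04 to 9.58 and 8.58 to 8.91. The call of Ttr was lost without any of day 4 replicate 2, day 7 replicates 1 and 3, day 9 replicates 2 and 3 and day 11 replicate 1 (adjusted p up to 0.0628). That of Fga was lost without any of day 4 replicate 3, day 7 replicates 1 and 3, day 9 replicate 2 and day 11 replicate 3 (up to 0.0717). That of Cela1 was lost without any of day 4 replicates 2 and 3, day 7 replicates 1 and 2, day 9 replicates 1 and 3 and day 11 replicates 1 and 2 (up to 0.0744). The part of liver or pancreatic tissue in these falls was not tested.

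The largest step of most called genes lay between days 4 and 9, which among the rises was near the course of all genes with a positive difference. Among the 66 rises the largest of the 3 steps was day 4 to 7 for 33, day 7 to 9 for 26 and day 9 to 11 for 7. These shares were 50%, 39.4% and 10.6%, beside 44.1%, 38.8% and 17.1% of all tested genes with a positive difference. Among the 64 falls it was 17, 37 and 10 (26.6%, 57.8% and 15.6%), beside 19.3%, 30.8% and 49.8% of all tested genes with a negative difference. The median steps of the rises were 0.29, 0.30 and 0.10, and those of the falls -0.21, -0.38 and -0.15. All 3 steps ran the same way in 46 rises (69.7%) and 39 falls (60.9%), beside 17.6% of the 4082 tested genes with a positive difference and 22.8% of the 4548 with a negative one. The genes were called on the same arrays, so these shares describe their course and are not a test of it. Few genes were called between the ages within a side: from day 4 to day 7 limma called 7 genes (0.0811%; 4 higher, 3 lower), and from day 9 to day 11 it called 4 (0.0463%; 3 higher, 1 lower). These contrasts set 3 arrays against 3 and have larger standard errors than the pooled one (0.19 against 0.13 for Defa39). Their counts therefore do not show that change within a side was smaller.

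Of the 7 genes called from day 4 to day 7, 5 were also called between late and early suckling: Fbxo32, Thap2, Rsrp1, Abhd3 and Sectm1b. Fbxo32, a ubiquitin ligase of muscle wasting that rises with fasting and glucocorticoids, went from 5.34 on day 4 to 6.52 on day 7 (1.18, adjusted p 0.0493) and then 6.71 and 6.91. Rsrp1, a protein rich in arginine and serine, gained 1.00 in the same interval (0.00655) and then stayed between 9.98 and 10.21. The other two were Anxa8, an annexin, which peaked at day 7 (7.55, against 6.44 on day 4 and 6.58 on day 11), and Ndufaf4, an assembly factor of respiratory complex I, which fell by 0.71 (adjusted p 0.0493) and was at 7.18 and 7.12 on days 9 and 11. From day 9 to day 11, Car3 and Itln1 were joined by Setd5, a chromatin regulator, which rose by 0.80 (adjusted p 0.0377), and Pm20d1, an enzyme that makes N-acyl amino acids, which fell by 0.81 (0.0377). Neither was called between the pooled sides (0.25, adjusted p 0.236, and -0.25, 0.244).

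**Figure D4:**
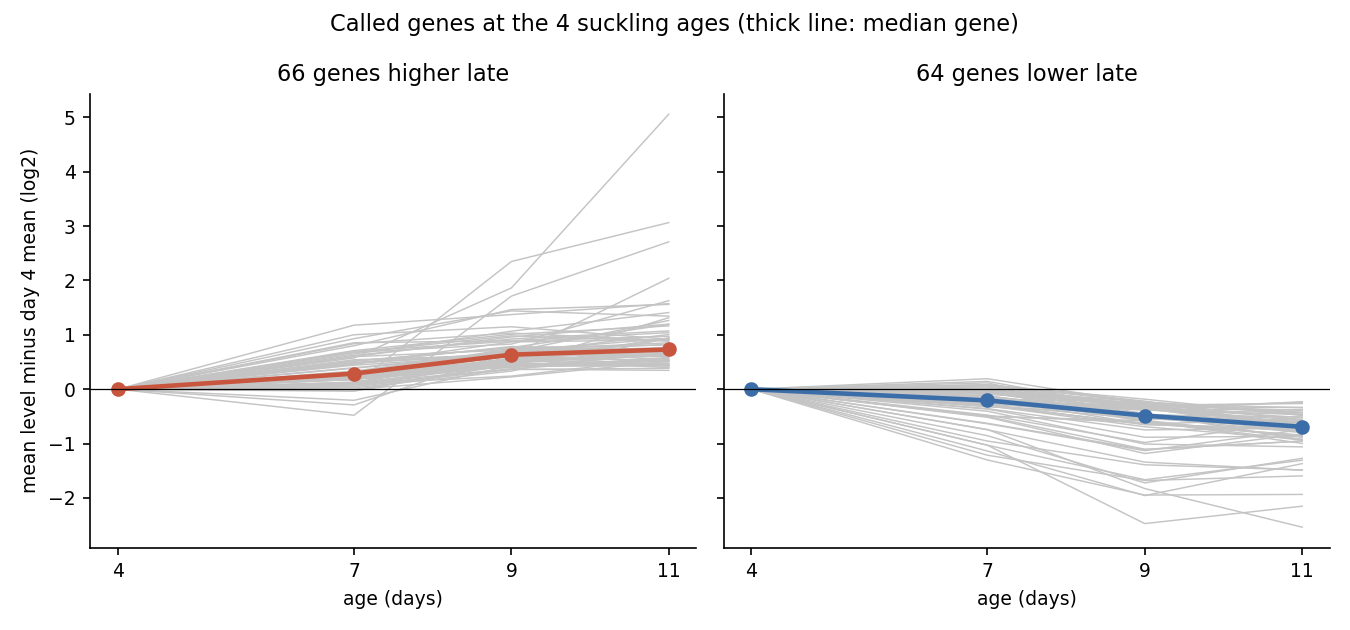
Mean log2 level of each called gene minus its day 4 mean, at 4, 7, 9 and 11 days, for the 66 genes that rose (left) and the 64 that fell (right); each grey line is a gene and the thick line is the median gene. The median moves most between days 4 and 9, and a few lines, led by Car3, climb steeply to day 11.

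The hybridization-control groups were uneven, with 3 of 6 early and 1 of 6 late arrays in the higher group, so each called gene was also examined with the group in the fit. With the group as a block, 52 genes rose and 79 fell, and 98 of the 130 genes called before were called again. Within the 8 arrays of the lower group (3 early, 5 late), 29 rose and 55 fell, and 51 of the 130 were called again. All 130 kept their direction in both, but they had been called on these same arrays, so this agreement was largely set beforehand and is not a separate test. Day 4 replicate 3 is the only day 4 array of the lower group. The day 4 part of each early-side value there thus rests on 1 mouse. Defa39 differed by 2.44, Itln1 by 2.30, Lyz1 by 1.01, Car3 by 3.33, Fabp6 by -1.76 and Fabp1 by -1.48 within the lower group. With the level of Xist as a covariate, 101 of the 130 were called again, in the same direction, and 4 of the 130 lie on chromosome X and 0 on Y. The share of all genes tested on these chromosomes was not taken, so these counts are not read further. Fabp1 (-1.71), Fabp6 (-1.82) and Ccnb2 (-0.54) under the block were close to their values without it.

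**Figure D5:**
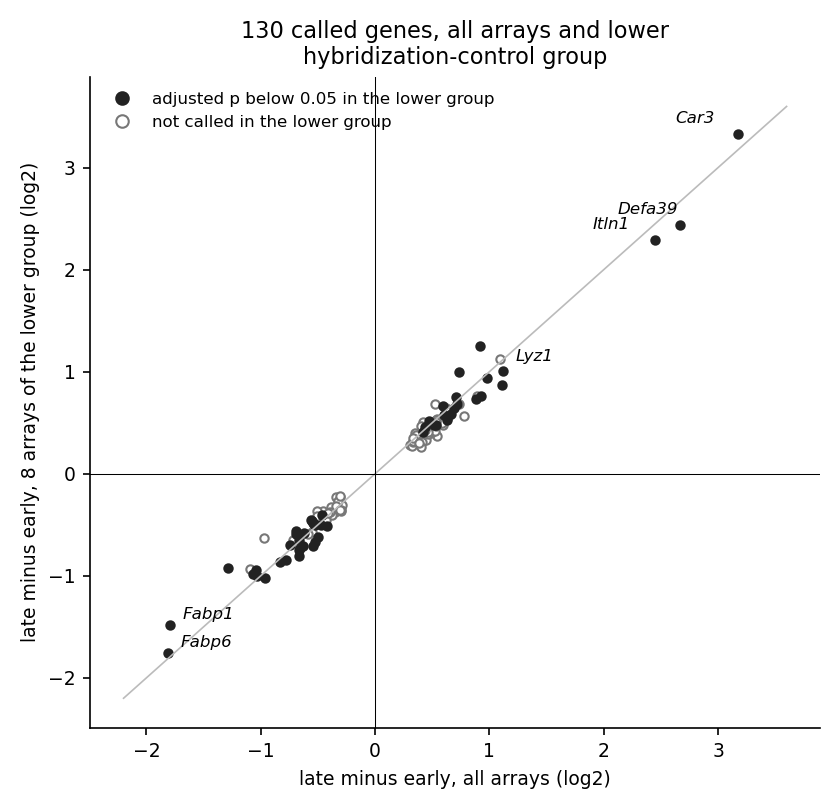
The 130 called genes, with the late minus early difference (log2) over all arrays on the horizontal axis and over the 8 arrays of the lower hybridization-control group on the vertical axis; the grey line marks equal values and filled points had an adjusted p below 0.05 in the lower group alone. All points lie in the quadrants of equal sign, near the line, but the 8 arrays are among those on which the genes were called.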

How the data were processed

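RNA from 18 ileal samples, 1 mouse each, was hybridized to Affymetrix arrays. The values the authors deposited are log2 signals. The submitters' processing notes name RMA, with no version. RMA corrects background, equalises array distributions and summarises probes. The table held 45101 probe sets (values 1.68 to 13.71, array medians 3.88 to 3.97) and no detection calls, so levels near the medians cannot be separated from background. The number of arrays limits the precision.

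Names came from the platform annotation: 34945 probe sets had 1 symbol, 932 several and 9211 were not listed; 34741 matched the GRCm38.p6 gene table. Each gene was represented by its brightest probe set (mean of the 18 arrays), tested where it was at log2 6 or more on at least 3 arrays (8630 of 18193 genes). This filter drew on all 18 arrays, so some genes were tested through 1 side only or through the arrays after weaning.

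Fits used limma 3.58.1 in R 4.3.3 (lmFit, eBayes; age as a factor with 6 levels, 12 residual degrees of freedom, median residual SD 0.176). The main contrast was the mean of days 9 and 11 minus that of days 4 and 7. Replicates are individual mice per the labels. The fit was tested on simulated data.

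The comparison, the 40 gene lists and the rule for named genes were chosen with earlier results of these data known. Named were the 12 largest non-overlapping rises and falls, up to 4 called members per list, the 3 largest called changes each way within a side, and 22 sentinel genes. The sentinels Sis and H19 were not analysed here. Of the lists, mast cell and colon had 0 tested genes. Promoter sequences came from RefSeq. Alternatives are given in the closing section.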

Additional observations from a re-analysis of the deposited data

Results flagged for a closer look

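On each side, an array was singled out by Dixon's criterion, when its gap to the nearest other array was too large a part of the range of the 6. This applied to 11 of 128 groups (8.59%), and chance alone gives about 1 in 20. On the early side, day 4 replicate 2 was lowest for Defa39 (5.04, the others 5.58 to 5.81), Mylip (5.78, the others 6.20 to 6.44) and Prdm1 (8.49, the others 8.74 to 8.80). Day 4 replicate 1 was highest for Gpr151 (7.17, the others 6.87 to 6.97).

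On the late side, day 11 replicate 1 was lowest for Fdft1 (8.01, the others 8.34 to 8.39) and Ttr (11.71, the others 11.94 to 12) and highest for Treh (3.33, the others 2.86 to 2.91). The same array stood highest in the hybridization control level (9.62, the others 8.74 to 9.05) and in the 18S rRNA control (8.19, the others 5.22 to 6.22). Day 9 replicate 1 was highest for Reg3g (9.56, the others 4.83 to 6.52), and day 11 replicate 2 lowest for Xist (5.12, the others 9.64 to 10.13).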

How the results depend on the processing

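None of the 44 called genes named by rule changed direction under the 40 alternatives, which reuse the arrays of the calls, and 4 kept the call in all of them. The counts moved more. A filter at log2 8 gave 41 higher and 38 lower genes and 2 from day 4 to day 7, and no filter gave 2 from day 9 to day 11. From day 4 to day 7, averaging a gene's probe sets gave 1, quantile normalization 4, median centring 3, the poly-A control as a covariate 3 and Xist as a covariate 4. The Xist covariate gave 2 from day 9 to day 11. With array weights the counts were 596 and 761, with 114 from day 4 to day 7 and 354 from day 9 to day 11, but the weights did not converge. The 12 suckling arrays alone gave 123 lower genes and 7 from day 9 to day 11, and without age in the fit 37 higher. With the hybridization-control group as a block, 3 and 2 genes were called within the sides. The lower group alone gave 29 higher genes and 0 from day 4 to day 7, and the higher group, with 1 late array assumed to vary like the others, 4 and 4, and 1 from day 4 to day 7. The titles of day 7 replicate 3 and day 9 replicate 2 carry the same unexplained number. Without both of them the counts were 21 and 20, then 0 and 1 within the sides. Leaving out day 4 gave 7 and 6, day 7 110 higher, day 9 39 higher, and day 11 16 and 16.

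Leaving out 1 array gave 35 (day 9 replicate 2) to 84 higher genes and 35 (day 7 replicate 1) to 89 lower genes, both highest without day 24 replicate 1. Within the sides it gave 0 to 9 genes from day 4 to day 7 and 0 to 5 from day 9 to day 11. The share of rises among called genes, 50.8%, was 39.7% with the block, 34.5% in the lower group and 39.4% without age. No paired analysis was possible because the replicate numbers only name samples in accession order. The causes of these shifts were not tested. Signals near background limit any fold from a dim level, such as that of Car3 or Scd1.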
